A study of Homo sapiens with 16 samples.

Results

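The genes described here are those of the TRAIL and FAS death receptor pathway in SW620 cells, a human line grown from a lymph node metastasis of a colorectal adenocarcinoma. The 9 members are the TRAIL receptors TNFRSF10A, TNFRSF10B, TNFRSF10C and TNFRSF10D, the ligand TRAIL itself (TNFSF10), the receptor FAS, the adaptor FADD, the initiator caspase CASP8 and its inhibitor CFLAR. They were chosen by gene name from the 58735 genes of the count table, with earlier results of these data known. Messenger RNA was sequenced from cells carrying a short hairpin RNA against ATF4 (shATF4), a transcription factor that drives the integrated stress response, and from cells carrying a scrambled hairpin (shSc). Each line was sampled untreated, after 24 h and after 48 h in 5 µM 5-fluorouracil (5-FU), a chemotherapy drug that inhibits thymidylate synthase. Each line gave 3 untreated libraries, 3 libraries at 24 h and 2 libraries at 48 h. The stated purpose was to examine the role of ATF4 in resistance of colorectal cancer cells to chemotherapy.

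Several features of the design limit these groups as models. The 4 libraries whose titles say 48 h carry a treatment tag of 24 h, and they were placed at 48 h by title. The knockdown rests on shATF4 cells as a single hairpin group set against a single control group, so the loss of ATF4 and any other difference between the lines cannot be told apart. The labels give no culture time for the untreated cells, so the drug and the time in culture cannot be told apart. No label says that replicates came from separate cultures, and p-values therefore measure only the spread between these libraries, which may be technical. In bulk RNA, fewer cells of a kind and less RNA per cell cannot be told apart.

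TRAIL and FAS ligand are members of the tumour necrosis factor family that kill cells by clustering receptors with an intracellular death domain. TNFRSF10A (also called DR4), TNFRSF10B (DR5) and FAS bind the adaptor FADD, which recruits and activates caspase-8, and CFLAR (c-FLIP) resembles caspase-8 and limits its activation in that complex. TNFRSF10C and TNFRSF10D bind TRAIL but lack a functional death domain and act as decoys. Colorectal epithelium and many colorectal cancer lines express these receptors, and ATF4 and its target CHOP (DDIT3) are known to raise TNFRSF10B transcription under stress of the endoplasmic reticulum.

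The promoters of FAS, TNFSF10 and CASP8 are shown first, because the transcripts of these 3 genes rose in both lines by 24 h of 5-FU. TNFRSF10D also did, and its window was not used here. Each run is the RefSeq (GRCh38.p14) window of 250 bases before a transcript start and 50 bases from it, written 5′ to 3′ on the gene's strand. Where RefSeq gives several starts, the window that lies farthest 5′ is printed. Capitals mark matches on either strand to the GC box GGGCGG, the AP-1 site TGANTCA, the core of the interferon-stimulated response element TTCNNTTTC, the ATF4 and C/EBP composite element TGATGNAA, the NF-kB motif and the single p53 decamer.
FAS, chr10:88990548-88990847, plus strand: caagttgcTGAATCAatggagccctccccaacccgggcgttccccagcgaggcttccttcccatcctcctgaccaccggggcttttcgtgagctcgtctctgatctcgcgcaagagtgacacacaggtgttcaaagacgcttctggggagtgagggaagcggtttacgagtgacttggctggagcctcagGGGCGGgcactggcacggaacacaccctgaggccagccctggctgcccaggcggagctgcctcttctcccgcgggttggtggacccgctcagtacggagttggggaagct
TNFSF10, chr3:172523381-172523680, minus strand: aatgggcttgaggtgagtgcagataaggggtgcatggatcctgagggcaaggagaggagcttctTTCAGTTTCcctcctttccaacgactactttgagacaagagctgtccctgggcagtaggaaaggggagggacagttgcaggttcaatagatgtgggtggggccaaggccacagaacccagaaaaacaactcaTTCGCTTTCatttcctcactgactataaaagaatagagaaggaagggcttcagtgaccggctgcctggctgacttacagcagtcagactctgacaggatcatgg
CASP8, chr2:201233213-201233512, plus strand: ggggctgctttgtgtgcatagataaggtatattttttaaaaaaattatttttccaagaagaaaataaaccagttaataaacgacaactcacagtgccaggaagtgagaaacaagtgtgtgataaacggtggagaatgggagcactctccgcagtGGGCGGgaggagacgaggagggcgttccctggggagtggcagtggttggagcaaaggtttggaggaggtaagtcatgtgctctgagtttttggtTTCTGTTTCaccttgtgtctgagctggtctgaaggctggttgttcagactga

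In the FAS window an AP-1 match begins at -242 and a GC box at -60, counted from the transcript start. The TNFSF10 window has the interferon element core at -186 and at -54 and, not in capitals, a TATA box (TATAAA) at -31. The CASP8 window has a GC box at -96 and the interferon element core at -2, across the start. None of these windows holds TGATGNAA, which was found in 3.62% of 35116 promoter windows of the same length. The GC box was found in 45% of them, the AP-1 site in 7.71%, the interferon element core in 8.11% and the TATA box in 11.5%. A second FAS window, farther downstream, has an NF-kB match at -157 and a p53 decamer at -122, motifs present in 11.3% and 6.63% of windows. Of the other CASP8 windows, one has a p53 decamer at -121 and an AP-1 match at -1, and another has an AP-1 match at -61. These matches describe the letters only, since no binding was measured.

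Libraries held 14571611 to 17824188 counts, and 17309 genes passed the filter on low counts. Levels are given as CPM, the counts divided by the library size in units of 1000000 counts, with sizes scaled by the trimmed mean of M values (TMM). Calls were made where edgeR's quasi-likelihood test gave an adjusted p under 0.05. ATF4 itself ranged from 91.1 to 179 CPM in the shATF4 libraries and from 270 to 388 CPM in the shSc libraries, with no overlap. CDKN1A, the cell cycle inhibitor p21, served as a check of the drug and rose by 4.72 ± 0.19 (log2, SE) in shATF4 cells and by 5.22 ± 0.20 in shSc cells after 48 h. All 10 epithelial markers had counts, with EPCAM at 381 to 562 CPM, although LGALS4 stayed under 1 CPM (0.0670 to 0.947 CPM). Leukocyte markers summed to 24.4 to 24.5 CPM at 48 h and 4.22 to 5.22 CPM untreated in shATF4 cells, and to 30.4 to 33.6 CPM at 48 h and 3.88 to 4.55 CPM untreated in shSc cells. Most of the leukocyte counts came from LYZ, and PTPRC had 4 counts in all. The 5 fibroblast markers summed to 35.4 to 63.9 CPM over all libraries, with DCN at 1 count. Most of that sum came from LUM (22.3 to 42.5 CPM), COL1A1 (7.24 to 21.9 CPM) and PDGFRB (0.888 to 9.77 CPM). The 4 endothelial markers summed to 3.67 to 13.8 CPM, with KDR at 2 counts. Most of these came from VWF (1.54 to 8.87 CPM) and PECAM1 (1.2 to 6.11 CPM). The epithelial sum was 6512 to 6974 CPM at 48 h and 11183 to 11752 CPM untreated in shATF4 cells, and 7326 to 7506 CPM at 48 h and 11093 to 12471 CPM untreated in shSc cells. Most of the epithelial sum came from the keratins KRT8 (3520 to 7552 CPM), KRT18 (1307 to 2410 CPM) and KRT19 (756 to 1478 CPM). KRT20, CDX2 and CDH17 had at most 13.3, 35.6 and 7.98 CPM. The fibroblast and endothelial sums were also lower in untreated libraries than under 5-FU, and the part of these transcripts in the members' changes was not tested. The libraries treated as standing apart from their group were shATF4 24 h replicate 3 and shSc untreated replicate 2. The share of RN7SL, the RNA of the signal recognition particle, was 0.0713% in that shATF4 library and 0.0224% and 0.0241% in its fellow replicates. By the same measure shSc untreated replicate 1 also differed, at 0.0161% against 0.00368% and 0.0031%, and it was not put with them. The share of mitochondrial messenger RNAs was 1.42% in shSc untreated replicate 2 and 0.753% and 0.766% in its fellow replicates. That share was 1.23% to 1.52% under 5-FU and 0.764% to 0.795% untreated in shATF4 cells, and 1.07% to 1.49% under 5-FU in shSc cells. Its part in the 5-FU changes was not tested.

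Under 5-FU FAS had the largest fold change of the 8 members tested, at both times and in both lines. In shATF4 cells 6 of the 8 members tested rose at 24 h (TNFRSF10A, TNFRSF10B, TNFRSF10D, TNFSF10, FAS and CASP8), where 44.4% of all genes were called. At 48 h in shATF4 cells 6 rose (TNFRSF10B, TNFRSF10D, TNFSF10, FAS, CASP8 and CFLAR) and FADD fell, where 58.3% were called. In shSc cells 4 rose at 24 h (TNFRSF10D, TNFSF10, FAS and CASP8), against a background of 44.0%, and 5 rose at 48 h (TNFRSF10B, TNFRSF10D, FAS, CASP8 and CFLAR), against 60.7%. These shares count calls in either direction, among only 8 members. The members' share was near that of all genes in shSc cells and above it in shATF4 cells. Of the 17309 genes tested, 4018 at 24 h and 5124 at 48 h were called higher in shATF4 cells. In shSc cells 3769 and 5301 were called higher at those times. At 48 h the members' median log2 fold change was 0.47 in shATF4 cells and 0.39 in shSc cells, while the median of all genes was 0.03 in either line. Both comparisons within a line share the same untreated libraries. TNFRSF10C did not pass the filter on low counts and is described by its counts.

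**Figure D1:**
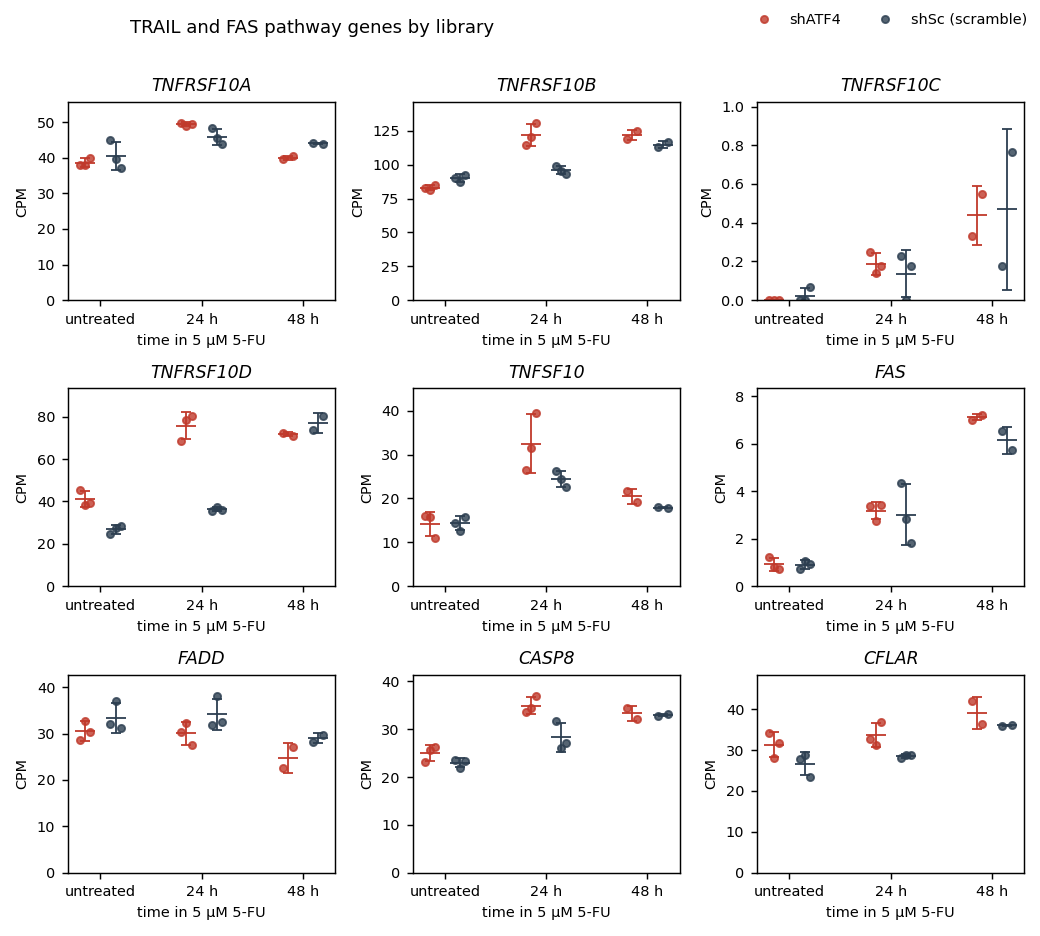
Level of each of the 9 genes in every library, in CPM on TMM-scaled library sizes, by time in 5 µM 5-FU. Points are libraries, with shATF4 left of shSc at each time, and bars give the mean and SD (3 libraries untreated and at 24 h, 2 at 48 h). TNFRSF10D in shATF4 cells had reached 68.6 to 80.2 CPM by 24 h, a level shSc cells had at 48 h (73.6 and 80.3 CPM).

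Of the differences between the lines, that of the decoy receptor TNFRSF10D at 24 h was the largest among the members. In untreated cells it was the only member called, higher in shATF4 cells, where 2.92% of all genes were called. At 24 h of 5-FU 4 members were higher in shATF4 cells (TNFRSF10B, TNFRSF10D, TNFSF10 and CASP8), where 20.4% of genes were called in either direction. Of the 17309 genes tested, 1821 were called higher there. The RN7SL share at 24 h was 0.0224% to 0.0713% in shATF4 and 0.00424% to 0.00614% in shSc libraries, and its part in these differences was not tested. Without both libraries that stood apart, TNFRSF10B, TNFRSF10D and CASP8 were still called and TNFSF10 was not (edgeR adjusted p = 0.146). At 48 h none of the 8 was called, against 9.45% of all genes, none had an unadjusted p under 0.05 in edgeR, and DESeq2 called 0 of them. The response to 5-FU itself differed between the lines for 1 member at 24 h, TNFRSF10B, against 2.13% of genes, and for 1 member at 48 h, TNFRSF10D, against 2.74%.

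TNFRSF10B, the death receptor DR5, is a death domain receptor that many stress pathways induce. In shATF4 cells it stood at 82.9, 81.7 and 84.9 CPM untreated, at 114.6, 120.5 and 130.5 CPM at 24 h and at 119.2 and 124.7 CPM at 48 h. Among shSc cells the values were 90.5, 86.9 and 92.5 CPM untreated, 99.2, 95.6 and 93.0 CPM at 24 h and 113.2 and 116.5 CPM at 48 h. The treated shATF4 libraries lay above every shSc library except that the lowest 24 h value fell between the shSc 48 h values. At 24 h TNFRSF10B had risen by 0.55 ± 0.07 (log2, SE) in shATF4 cells (edgeR adjusted p = 8.46e-07), while in shSc cells the difference was 0.09 ± 0.07 (adjusted p = 0.267). Under upper-quartile scaling the shSc difference was called, at 0.17 (edgeR adjusted p = 0.0432, in a range of 0.0432 to 0.637 over 23 alternatives), and members called at 24 h in shSc cells numbered 6, against 4. The gap between the responses was itself called, at 0.46 ± 0.09 (edgeR adjusted p = 0.0162). By 48 h TNFRSF10B had risen by 0.55 ± 0.07 in shATF4 cells (edgeR adjusted p = 1.27e-06) and by 0.35 ± 0.07 in shSc cells (adjusted p = 0.000258), and the gap of 0.20 ± 0.10 was not called (adjusted p = 0.362, 95% interval -0.01 to 0.41). In shSc cells the step to 48 h from 24 h was 0.26 ± 0.07 (edgeR adjusted p = 0.00719), while in shATF4 cells it was 0.00 ± 0.07. The gap at 24 h was no longer called without shSc 24 h replicate 3 (edgeR adjusted p = 0.0625) or without shATF4 untreated replicate 2 (0.0561), in a range of 0.000829 to 0.0625 over its 23 alternatives. The step in shSc cells was lost without either 48 h library (0.0509 and 0.101) and with no filter on low counts (0.0507), in a range of 0.000297 to 0.101.

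TNFRSF10A, the death receptor DR4, varied least of the receptors. The shATF4 libraries had 38.0, 38.0 and 40.0 CPM untreated, 49.8, 48.9 and 49.7 CPM at 24 h and 39.7 and 40.4 CPM at 48 h. Values in shSc cells were 45.0, 39.6 and 37.2 CPM untreated, 48.4, 45.6 and 43.8 CPM at 24 h and 44.2 and 44.0 CPM at 48 h. Only the 24 h shATF4 libraries stood clear of all others. The rise in shATF4 cells at 24 h was 0.36 ± 0.08 (edgeR adjusted p = 0.000826), and it fell by 0.30 ± 0.09 on the log2 scale between 24 h and 48 h (adjusted p = 0.00597). In shSc cells the difference at 24 h was 0.18 ± 0.08 (edgeR adjusted p = 0.0656), and it was called under upper-quartile scaling (0.0122), median-of-ratios scaling (0.0454), DESeq2 (0.0484) or without shSc untreated replicate 1 (0.0168), in a range of 0.0122 to 0.255. The response did not differ detectably between the lines, at 0.18 ± 0.11 at 24 h (95% interval -0.05 to 0.40) and -0.07 ± 0.12 at 48 h (-0.32 to 0.18).

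TNFRSF10D, the decoy receptor with a truncated death domain, was higher in shATF4 cells before the drug was added and had reached its 48 h level in them by 24 h. Among shATF4 cells the values were 45.3, 38.5 and 39.3 CPM untreated, 68.6, 78.4 and 80.2 CPM at 24 h and 72.3 and 71.0 CPM at 48 h. The shSc libraries had 24.6, 27.7 and 28.4 CPM untreated, 35.5, 37.5 and 36.1 CPM at 24 h and 73.6 and 80.3 CPM at 48 h. Untreated and at 24 h every shATF4 library lay above every shSc library of the same time, and at 48 h both shATF4 libraries lay below both shSc libraries. The knockdown difference was 0.61 ± 0.09 (log2, SE) untreated, a 1.52-fold higher level (edgeR adjusted p = 0.000279), and 1.06 ± 0.08 at 24 h, 2.08-fold higher (adjusted p = 5.27e-08). At 48 h it was -0.10 ± 0.10 (edgeR adjusted p = 0.602, 95% interval -0.31 to 0.10).

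The response of TNFRSF10D at 48 h differed between the lines. At 24 h it had risen by 0.88 ± 0.08 in shATF4 cells (edgeR adjusted p = 4.35e-08) and by 0.43 ± 0.09 in shSc cells (adjusted p = 0.000454). At 48 h the rise was 0.80 ± 0.09 in shATF4 cells (edgeR adjusted p = 2.13e-07) and 1.51 ± 0.09 in shSc cells (adjusted p = 2.03e-11). From 24 h to 48 h shSc cells gained a further 1.08 ± 0.09 (edgeR adjusted p = 1.64e-08), while the difference in shATF4 cells was -0.08 ± 0.09 (adjusted p = 0.492). The gap between the responses was 0.45 ± 0.12 at 24 h and was not called (edgeR adjusted p = 0.0562). At 48 h it was -0.71 ± 0.13 and was called (adjusted p = 0.00499), the smaller response being that of shATF4 cells. The gap at 24 h was called under DESeq2 (0.035), with the replicate number as a block (0.0431), with no filter on low counts (0.0464) or without shATF4 24 h replicate 1 (0.0173), in a range of 0.0173 to 0.158. The gap at 48 h was lost without shSc 48 h replicate 2 (edgeR adjusted p = 0.0552), in a range of 0.000148 to 0.0552.

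TNFRSF10C, the decoy receptor anchored to the membrane by a lipid, had few reads in any library. It had 0, 0 and 0 counts untreated, 4, 2 and 3 counts at 24 h and 6 and 10 counts at 48 h in shATF4 cells. Among shSc cells the values were 0, 0 and 1 counts untreated, 4, 0 and 3 counts at 24 h and 3 and 13 counts at 48 h. In shATF4 cells both 48 h libraries lay above all others, while in shSc cells the 48 h libraries overlapped those at 24 h. In shATF4 cells, with 3 counts over the untreated group taken as a floor, the ratio to untreated was 6.29 at 48 h and 2.71 at 24 h. Those ratios take the treated counts (16 and 9) as they stand, without their counting error. In shSc cells the ratio at 48 h to untreated was 20.8 (95% exact interval 3.23 to 871). Of its 16 counts at 48 h, 13 came from replicate 2, and without that library 3 counts stood against 1, too few for a ratio. With no filter on low counts the rise was called at 48 h in shATF4 cells (edgeR adjusted p = 0.000719) and in shSc cells (0.00422) and at 24 h in shATF4 cells (0.0249), but not at 24 h in shSc cells (0.283). In the authors' deposited table the adjusted p at 48 h is 0.0185 in shATF4 cells and 0.0456 in shSc cells. The knockdown ratio was 1.35 (0.449 to 4.28) at 24 h and 0.935 (0.438 to 2) at 48 h. The intervals cover counting error only, and the floor covers only that of the untreated group, for reads counted without molecular identifiers. TNFRSF10C shares 485 exon bases with AC107959.4, a long non-coding RNA on the same strand that had 44 counts in all, so the reads may be split between them.

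The genes of the 4 TRAIL receptors lie near each other on chromosome 8. Their levels were also compared per kilobase of the deposited gene length, because counts grow with length. Untreated, TNFRSF10B led TNFRSF10A and TNFRSF10A led TNFRSF10D in either line, with 16.1, 13.1 and 11.6 CPM per kb in shATF4 cells and 17.4, 13.8 and 7.60 CPM per kb in shSc cells. The ranges of neighbours in that order did not overlap. At 24 h in shATF4 cells TNFRSF10D (21.4 ± 1.8 CPM per kb, SD, n = 3) overlapped TNFRSF10B (23.6 ± 1.6) and lay above TNFRSF10A (16.8 ± 0.2). At 48 h in shATF4 cells TNFRSF10D (20.25 ± 0.27, n = 2) lay below TNFRSF10B (23.6 ± 0.8) with no overlap. In shSc cells at 24 h the untreated order held, with TNFRSF10D at 10.3 ± 0.3 CPM per kb, and at 48 h TNFRSF10D (21.7 ± 1.3, n = 2) overlapped TNFRSF10B (22.3 ± 0.5).

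The decoys' share of the summed TRAIL receptor level was therefore larger in shATF4 cells until 48 h. It was 28.4 ± 2.0% untreated, 34.7 ± 1.3% at 24 h and 35.5 ± 0.8% at 48 h in shATF4 cells (SD, n = 3, 3 and 2). In shSc cells it was 19.7 ± 1.9% untreated, 23.3 ± 1.0% at 24 h and 37.1 ± 1.4% at 48 h. The lines did not overlap untreated or at 24 h, and the share was almost entirely TNFRSF10D. The summed level of the 4 receptors was 40.8 ± 1.1, 61.9 ± 3.1 and 57.7 ± 0.8 CPM per kb over these times in shATF4 cells, and 38.8 ± 0.8, 44.5 ± 1.3 and 59.2 ± 2.0 CPM per kb in shSc cells. These shares are a description of RNA and carry no test.

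**Figure D2:**
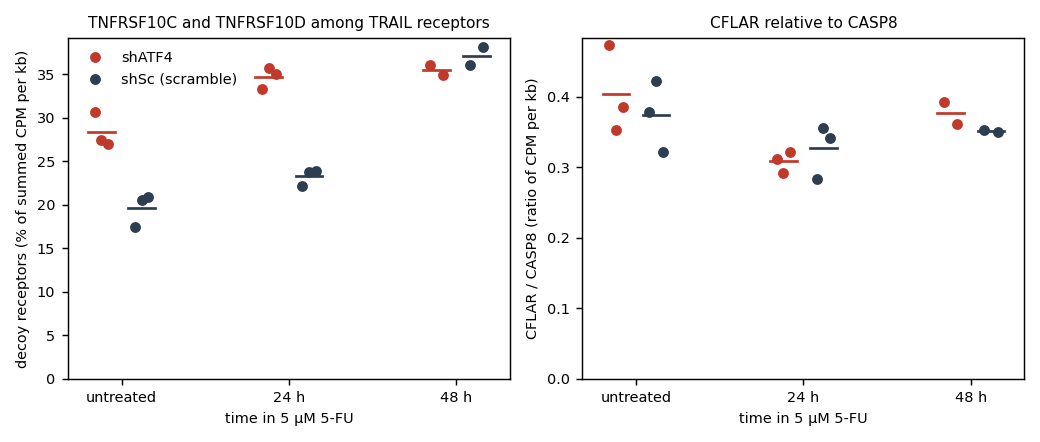
Left, the share of TNFRSF10C and TNFRSF10D in the summed level of the 4 TRAIL receptors (percent of CPM per kb). Right, the ratio of CFLAR to CASP8 (CPM per kb). Points are libraries and lines are group means, with shATF4 left of shSc at each time. The decoy share averaged 34.7% in shATF4 and 23.3% in shSc cells at 24 h, and 35.5% and 37.1% at 48 h. The CFLAR to CASP8 ratio overlapped between the lines at 24 h but not at 48 h.

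TNFSF10, the ligand TRAIL (chromosome 3, 172505508 to 172523507, GRCh38, minus strand), was highest at 24 h in both lines. The shATF4 libraries had 15.98, 15.7 and 11.1 CPM untreated, 26.4, 31.5 and 39.5 CPM at 24 h and 21.7 and 19.2 CPM at 48 h. Values in shSc cells were 14.4, 12.7 and 15.9 CPM untreated, 26.2, 24.5 and 22.5 CPM at 24 h and 17.99 and 17.9 CPM at 48 h. All libraries at 24 h lay above all libraries at the other times, and the lines overlapped untreated. The rise at 24 h was 1.19 ± 0.14 in shATF4 cells, or 2.28-fold (edgeR adjusted p = 1.09e-06), and 0.77 ± 0.14 in shSc cells, or 1.71-fold (adjusted p = 0.000193). From 24 h to 48 h it fell by 0.67 ± 0.15 on the log2 scale in shATF4 cells (edgeR adjusted p = 0.0013) and by 0.44 ± 0.16 in shSc cells (adjusted p = 0.0306). Against untreated cells the difference at 48 h was 0.52 ± 0.16 in shATF4 cells (edgeR adjusted p = 0.00854) and 0.33 ± 0.16 in shSc cells (adjusted p = 0.0897, or 0.0417 without shATF4 24 h replicate 3, in a range of 0.0156 to 0.247). The level at 24 h was 0.41 ± 0.14 higher in shATF4 than in shSc cells (edgeR adjusted p = 0.035), but the gap between the responses, 0.42 ± 0.20, was not called (adjusted p = 0.278).

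The calls on TNFSF10 that lie near the threshold changed when single libraries were left out. The higher level in shATF4 cells at 24 h was lost in 9 of 23 alternatives. These were leaving out any of shSc 24 h replicates 1, 2 and 3 (edgeR adjusted p = 0.0647, 0.0892 and 0.149), either shSc 48 h library (0.0538 and 0.054), shATF4 24 h replicate 2 (0.0616) or 3 (0.186), or both libraries that stood apart (0.146), and fitting the compared groups alone (0.0696). Without shATF4 24 h replicate 3, the library with the most RN7SL RNA, that difference was 0.25. The call at 48 h in shATF4 cells was lost without shATF4 untreated replicate 3 (edgeR adjusted p = 0.0549) or 48 h replicate 1 (0.0908), in a range of 0.000936 to 0.0908. The fall in shSc cells was lost without shSc 24 h replicate 1 (0.0821), 48 h replicate 1 (0.0997) or 48 h replicate 2 (0.116) and under upper-quartile scaling (0.0648), in a range of 0.000696 to 0.116.

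FAS, the receptor for FAS ligand and a known p53 target, was the scarcest of the members tested and had the largest fold rise. Among shATF4 cells the values were 1.23, 0.830 and 0.716 CPM untreated, 3.37, 2.76 and 3.44 CPM at 24 h and 7.03 and 7.21 CPM at 48 h. The shSc libraries had 0.732, 1.08 and 0.938 CPM untreated, 4.37, 2.83 and 1.84 CPM at 24 h and 6.54 and 5.75 CPM at 48 h. The 3 times did not overlap in either line, and the lines overlapped untreated and at 24 h but not at 48 h. These levels rest on 10 to 132 counts per library, so the errors are wider than for the other members. FAS was 3.43-fold higher at 24 h in shATF4 cells (1.78 ± 0.30, edgeR adjusted p = 7e-05) and 3.25-fold higher in shSc cells (1.70 ± 0.30, adjusted p = 0.000108). At 48 h it was 7.62-fold higher in shATF4 cells (2.93 ± 0.29, edgeR adjusted p = 3.67e-08) and 6.62-fold higher in shSc cells (2.73 ± 0.30, adjusted p = 1.06e-07). No difference between the lines was detectable, with 95% intervals of the log2 difference of -0.77 to 0.79 untreated, -0.43 to 0.59 at 24 h and -0.32 to 0.75 at 48 h.

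FAS lies on chromosome 10 at 88990582 to 89015785 (GRCh38, plus strand). It overlaps ACTA2, the smooth muscle actin gene on the opposite strand, by 380 exon bases, and whether the counting used strand was not given in the sources used here. ACTA2 had 9, 4 and 8 counts untreated, 13, 8 and 12 counts at 24 h and 48 and 58 counts at 48 h in shATF4 cells. It had 4, 15 and 8 counts untreated, 12, 14 and 16 counts at 24 h and 45 and 46 counts at 48 h in shSc cells. ACTA2 counts were thus also highest at 48 h, and reads of the shared bases cannot be told apart without strand. Genes on the opposite strand also overlap TNFRSF10A (AC100861.1, 3501 counts in all, 266 shared exon bases, and TNFRSF10A-AS1, 840 counts, 224 bases), TNFRSF10B (RHOBTB2, 9043 counts, 67 bases) and CFLAR (CFLAR-AS1, 43 counts, 777 bases, and IMPDH1P10, 4 counts, 1488 bases). FADD shares 1011 of its 1841 exon bases with AP000879.1 on the opposite strand, which had 0 counts. The part of these overlaps in the members' levels was not tested.

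CASP8, the initiator caspase of both receptor complexes (chromosome 2, 201233443 to 201287711, GRCh38, plus strand), rose under 5-FU in both lines. It had 23.2, 25.7 and 26.3 CPM untreated, 33.6, 34.4 and 36.9 CPM at 24 h and 34.4 and 32.2 CPM at 48 h in shATF4 cells. Among shSc cells the values were 23.6, 21.9 and 23.4 CPM untreated, 31.7, 26.0 and 27.1 CPM at 24 h and 32.8 and 33.2 CPM at 48 h. No treated library overlapped an untreated library of its line. At 24 h the rise was 0.48 ± 0.09 in shATF4 cells (edgeR adjusted p = 0.000179) and 0.30 ± 0.09 in shSc cells (adjusted p = 0.0105). At 48 h it was 0.41 ± 0.10 in shATF4 cells (edgeR adjusted p = 0.00126) and 0.52 ± 0.10 in shSc cells (adjusted p = 0.000118). The level at 24 h was 0.31 ± 0.09 higher in shATF4 than in shSc cells (edgeR adjusted p = 0.0181), and the gap between the responses was not called (0.18 ± 0.13, adjusted p = 0.481). That difference in level was lost without shSc 24 h replicate 2 (edgeR adjusted p = 0.107) or 3 (0.0955), without shATF4 24 h replicate 3 (0.0548) and in a fit of the compared groups alone (0.061), in a range of 0.0115 to 0.107. The 24 h rise in shSc cells was lost without shSc 24 h replicate 1 (0.0798), in a range of 0.00223 to 0.0798.

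CFLAR, the caspase-8 inhibitor (chromosome 2, 201116104 to 201176687, plus strand), rose at 48 h and was not called at 24 h. The shATF4 libraries had 34.2, 28.2 and 31.6 CPM untreated, 32.7, 31.2 and 37.0 CPM at 24 h and 41.9 and 36.3 CPM at 48 h. Values in shSc cells were 27.8, 28.8 and 23.5 CPM untreated, 27.9, 28.8 and 28.8 CPM at 24 h and 36.0 and 36.1 CPM at 48 h. Libraries at 48 h lay above all untreated libraries of their line. At 24 h and at 48 h every shATF4 library lay above every shSc library of the same time. The knockdown difference was not called untreated (0.23 ± 0.10, edgeR adjusted p = 0.283), at 24 h (0.24 ± 0.10, 0.0859) or at 48 h (0.12 ± 0.12, 0.609). The rise at 48 h was 0.32 ± 0.11 in shATF4 cells (edgeR adjusted p = 0.0142) and 0.43 ± 0.11 in shSc cells (adjusted p = 0.00167). In shSc cells it rose by 0.34 ± 0.11 between 24 h and 48 h (edgeR adjusted p = 0.0169). The rise in shATF4 cells was lost without untreated replicate 2 (edgeR adjusted p = 0.076) or 48 h replicate 1 (0.215), in a range of 0.00139 to 0.215. The step in shSc cells was lost without 24 h replicate 1 (0.0571) or 48 h replicate 1 (0.0975) or 2 (0.105), in a range of 0.00114 to 0.105.

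FADD, the adaptor that joins receptor and caspase-8 (chromosome 11, 70203163 to 70207390, plus strand), was the only member that fell below its untreated level. Among shATF4 cells the values were 28.6, 32.7 and 30.4 CPM untreated, 30.4, 32.2 and 27.4 CPM at 24 h and 22.5 and 27.1 CPM at 48 h. The shSc libraries had 32.0, 37.1 and 31.2 CPM untreated, 31.9, 38.0 and 32.4 CPM at 24 h and 28.3 and 29.8 CPM at 48 h. The libraries at 48 h were the lowest in both lines. In shATF4 cells at 48 h FADD fell by 0.30 ± 0.11 on the log2 scale (edgeR adjusted p = 0.0296), and in shSc cells the difference was -0.21 ± 0.11 (adjusted p = 0.124). The fall was lost without shATF4 untreated replicate 2 (edgeR adjusted p = 0.106) or 3 (0.0527), without 48 h replicate 1 (0.289) and under upper-quartile scaling (0.204), in a range of 0.00295 to 0.289. With the replicate number as a block the shSc difference at 48 h was called (adjusted p = 0.0259).

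Per length, CFLAR stood below CASP8 in every library. The ratio of CFLAR to CASP8 was 0.404 ± 0.063 untreated, 0.309 ± 0.015 at 24 h and 0.377 ± 0.022 at 48 h in shATF4 cells (SD, n = 3, 3 and 2). In shSc cells it was 0.375 ± 0.050, 0.327 ± 0.038 and 0.352 ± 0.002 at the same times. The ratio did not separate the lines untreated or at 24 h. At 48 h both shATF4 libraries (0.392 and 0.362) lay above both shSc libraries (0.353 and 0.350), which was not tested. The gene length of CFLAR is 22529 bp, the union of all its exons, and that of CASP8 is 7243 bp, and a shorter length would give CFLAR a higher level. The order rests on these lengths. In plain CPM mean CFLAR lay above mean CASP8 untreated (31.3 against 25.1 in shATF4, 26.7 against 23.0 in shSc cells). The same held at 48 h (39.1 against 33.3 and 36.0 against 33.0). At 24 h the means were 33.6 against 35.0 in shATF4 and 28.5 against 28.3 in shSc cells. FADD had the highest mean level per length in untreated cells, at 16.6 ± 1.1 CPM per kb in shATF4 cells and 18.2 ± 1.7 CPM per kb in shSc cells, in a range that overlapped that of TNFRSF10B.

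**Figure D3:**
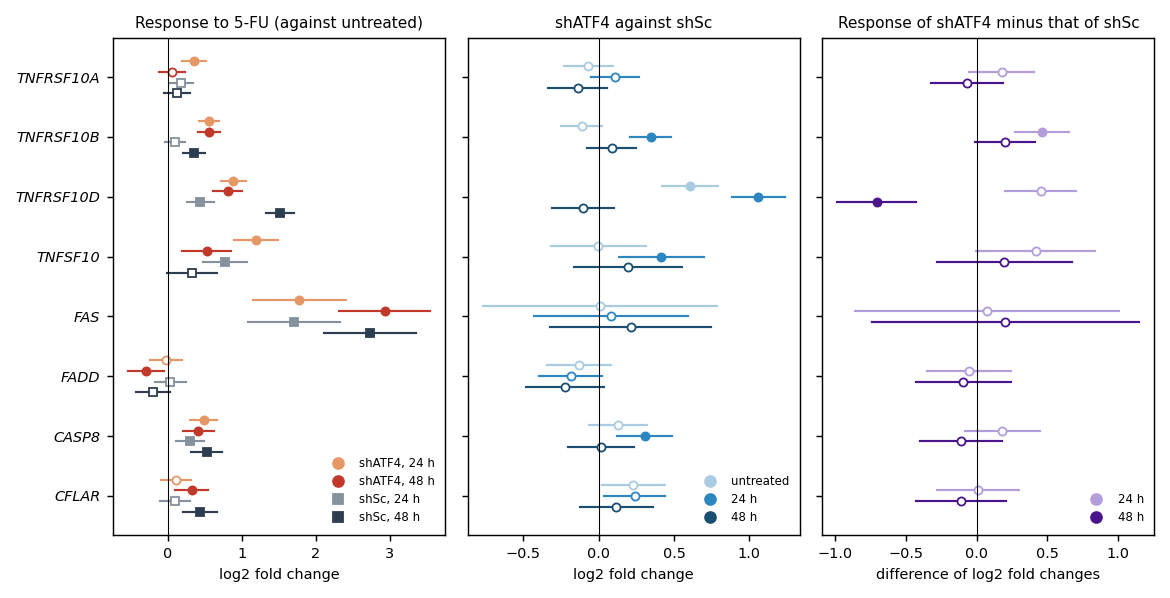
Log2 fold changes of the 8 members tested, with 95% intervals from edgeR's quasi-likelihood fit. Left, 5-FU against untreated in each line and time; centre, shATF4 against shSc at each time; right, the response of shATF4 cells minus that of shSc cells. Filled symbols were called at an adjusted p under 0.05. FAS lies farthest right under 5-FU, and the TNFRSF10D difference between the responses was -0.71 at 48 h.

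From 24 h to 48 h FAS kept rising in both lines while TNFSF10, the ligand of the TRAIL receptors, fell. FASLG, the ligand of FAS and not a member, was not called over this step. Its difference was -0.33 ± 0.18 in shATF4 cells (edgeR adjusted p = 0.142) and 0.04 ± 0.18 in shSc cells (adjusted p = 0.879). At 48 h FASLG was above untreated by 0.78 ± 0.19 in shATF4 cells (edgeR adjusted p = 0.00161) and by 1.53 ± 0.20 in shSc cells (adjusted p = 9.02e-07). In shATF4 cells FAS rose, by 1.15 ± 0.25 (edgeR adjusted p = 0.00063), and TNFRSF10A and TNFSF10 fell, 3 of 8 members against 48.2% of all genes. In shSc cells FAS rose, by 1.02 ± 0.25 (adjusted p = 0.00289), as did TNFRSF10B, TNFRSF10D and CFLAR, and TNFSF10 fell, 5 of 8 members against 38.3% of all genes. Without shATF4 24 h replicate 3, FADD and CFLAR were called as well in shATF4 cells (edgeR adjusted p = 0.021 and 0.031), and FADD was also called without shATF4 48 h replicate 2 (0.0301) or shSc untreated replicate 2 (0.0417). Over all alternatives the adjusted p ranged from 0.00667 to 0.441 for FADD and from 0.0211 to 0.535 for CFLAR. In shSc cells CASP8 was called without shSc 24 h replicate 1 (0.0298), in a range of 0.0236 to 0.302.

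The wider pathway was described with 4 gene lists. Of 9 other receptors and ligands of the family, TNFRSF6B had 0 counts and LTA 36, and the other 7 were tested. All 7 rose at 48 h in both lines, with a median log2 fold change of 0.78 in shATF4 cells and 1.17 in shSc cells, against 0.03 for all genes. Of the 17309 genes tested, 58.3% and 60.7% were called in either direction, and 5124 and 5301 were called higher. Among the 7, TNF (at most 1.8 CPM) and TNFRSF11B (at most 4.62 CPM) had low levels. The call of TNFRSF11B in shATF4 cells lay near the threshold (edgeR adjusted p = 0.0483). TNFRSF1A, the main receptor for tumour necrosis factor, rose by 0.83 ± 0.08 in shATF4 cells (edgeR adjusted p = 2.98e-08) and by 0.75 ± 0.08 in shSc cells (adjusted p = 9.4e-08). TNFSF15, the ligand TL1A, rose by 1.75 ± 0.18 in shATF4 cells (edgeR adjusted p = 5e-08) and by 2.996 ± 0.188 in shSc cells (adjusted p = 2.54e-11). TNFRSF25, the receptor for TL1A, rose by 0.51 ± 0.14 in shATF4 cells (edgeR adjusted p = 0.00364) and by 1.17 ± 0.14 in shSc cells (adjusted p = 2.51e-07). The 48 h response of TNFSF15 was smaller in shATF4 cells by a called difference of -1.24 ± 0.27 (edgeR adjusted p = 0.0155). Its level at 24 h was 1.09 ± 0.15 higher in shATF4 than in shSc cells (adjusted p = 7.2e-05).

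Partners of the receptor complex moved in both directions. Of 13 such genes 6 rose and 4 fell at 48 h in each line, where 58.3% of all genes in shATF4 cells and 60.7% in shSc cells were called. CYLD, a deubiquitinase that promotes death signalling from the tumour necrosis factor receptor, rose by 1.34 ± 0.08 in shATF4 cells (edgeR adjusted p = 3.31e-11) and by 1.46 ± 0.08 in shSc cells (adjusted p = 5.85e-12). FAF1, a FAS-associated factor, fell by 1.07 ± 0.09 in shATF4 cells (edgeR adjusted p = 1.22e-09) and by 0.71 ± 0.08 in shSc cells (adjusted p = 2.72e-07). CUL3, a ubiquitin ligase scaffold that acts on caspase-8, fell by 0.70 ± 0.08 in shATF4 cells (edgeR adjusted p = 4.1e-07) and by 0.82 ± 0.08 in shSc cells (adjusted p = 4.35e-08).

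Genes that carry out death downstream of caspase-8 and genes that inhibit it were also mixed. Of 13 execution genes 6 rose and 3 fell at 48 h in shATF4 cells, and 4 rose and 4 fell in shSc cells, numbers near the shares of all genes called (58.3% and 60.7%). DIABLO, BID and BAK1 rose in both lines, by 0.36 to 1.02 in shATF4 cells and by 0.36 to 1.30 in shSc cells. The largest rise in each line was that of DIABLO, at no more than 3.11 CPM, and BID and BAK1 rose by no more than 0.64. DFFB, the caspase-activated nuclease, fell by 1.69 ± 0.14 in shATF4 cells (edgeR adjusted p = 3.63e-09) and by 1.71 ± 0.15 in shSc cells (adjusted p = 2.45e-09). Its inhibitor DFFA fell by 0.38 ± 0.07 in shATF4 cells (edgeR adjusted p = 0.000116) and by 0.41 ± 0.07 in shSc cells (adjusted p = 4.54e-05). Cytochrome c (CYCS) fell by 0.50 ± 0.11 in shATF4 cells (edgeR adjusted p = 0.000878) and by 0.50 ± 0.11 in shSc cells (adjusted p = 0.000727). Of 10 inhibitors 5 rose and 2 fell at 48 h in each line, against the same shares of all genes. BIRC3, the ubiquitin ligase cIAP2, rose by 1.93 ± 0.18 in shATF4 cells (edgeR adjusted p = 1.26e-08) and by 1.66 ± 0.18 in shSc cells (adjusted p = 9.64e-08). FAIM2, an inhibitor of FAS signalling, rose by 2.51 ± 0.33 in shATF4 cells (edgeR adjusted p = 1.22e-06) and by 3.26 ± 0.30 in shSc cells (adjusted p = 9.85e-09), at no more than 6.83 CPM. BCL2L1, which encodes BCL-XL, rose by 0.49 ± 0.06 in shATF4 cells (edgeR adjusted p = 1.17e-06) and by 0.998 ± 0.063 in shSc cells (adjusted p = 2.9e-11), and the gap of -0.51 ± 0.09 was called (adjusted p = 0.00384).

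DDIT3, the CHOP gene downstream of ATF4, was set beside TNFRSF10B because CHOP is a known activator of it. At 24 h the DDIT3 difference was 0.27 ± 0.14 in shATF4 cells (edgeR adjusted p = 0.118) and its rise in shSc cells 0.38 ± 0.15 (adjusted p = 0.0408), with a gap of -0.10 ± 0.20 that was not called (adjusted p = 0.833), while that of TNFRSF10B was called at 0.46 ± 0.09 (adjusted p = 0.0162). At 48 h DDIT3 rose by 0.41 ± 0.15 in shATF4 cells (edgeR adjusted p = 0.025) and by 1.63 ± 0.15 in shSc cells (adjusted p = 6.43e-09), and the gap of -1.22 ± 0.21 was called (adjusted p = 0.00298). TNFRSF10B over the same comparison rose by 0.55 ± 0.07 in shATF4 cells and by 0.35 ± 0.07 in shSc cells, with a gap that was not called (edgeR adjusted p = 0.362).

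The genes whose pattern was most like that of each varying receptor were found by Pearson correlation of log2 CPM over the 16 libraries, among 10565 protein-coding genes averaging at least 5 CPM. For TNFRSF10D they were TXNIP (r = 0.95), KLF11 (r = 0.94) and TMBIM1 (r = 0.94), and 20 genes reached 0.9. For TNFRSF10B they were F3 (r = 0.94), EMC3 (r = 0.94) and TRAFD1 (r = 0.93), with 30 genes at 0.9 or more. For TNFRSF10A they were KCNE3, BAD and IRAK2 (r = 0.90 each), the 3 genes that reached 0.9. For FAS they were ALDH3A1 (r = 0.97), HECA (r = 0.96) and ANGPTL2 (r = 0.96), and 387 genes reached 0.9. The libraries share groups and drug exposure, so these values describe likeness of pattern only.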

How the data were processed

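The deposited values used here are whole-number counts of reads per gene, made by the authors with featureCounts 1.5.0-p3; the build was GRCh38 (hg38), per the submitters' processing notes. Poly(A) RNA was selected and primed with random hexamers, per the labels' protocols. Aligner, annotation release and strand setting: not given in the sources used here. The deposited table also holds FPKM, gene length in bp, log2 fold changes and adjusted p-values for 7 comparisons, by a test the sources do not name, per the file headers. Length was used for CPM per kb, which was 1.000 to 1.024 times the deposited FPKM. Among 63 member values, the authors' deposited table has 26 with an adjusted p under 0.05. Of these, 24 were among the 27 called here, and 2 are of TNFRSF10C, which did not pass the filter.

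Genes were filtered with filterByExpr (17309 of 58735 kept, 99.90% of counts), scaled by TMM and fitted with edgeR 4.0.16 under R 4.3.3 as 6 groups over 16 libraries, with 10 residual degrees of freedom, which lets groups of 2 libraries share the spread of the others. The 11 comparisons were adjusted by Benjamini-Hochberg over all genes tested. Standard errors come from the F statistic. The alternatives were DESeq2 1.42.0, other scalings, no filter, a replicate block, the compared groups alone and omission of libraries. The script was tested on simulated data. Levels rest on 14571611 to 17824188 counts per library. Motifs were searched in RefSeq promoters, and exon overlaps taken from GENCODE 29.

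Named genes are all members, up to 3 genes a list called in the most comparisons (ties by the smallest p at 48 h in shSc cells), the 3 genes most like each varying receptor, and ATF4, CDKN1A and DDIT3. Others, such as FASLG, were named where the reading of a result turned on them. The members and lists were chosen with earlier results of these data known.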

Additional observations from a re-analysis of the deposited data

Results flagged for a closer look

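The response of TNFRSF10B to 24 h of 5-FU differed between the lines. It was 0.46 larger (log2) in shATF4 than in shSc cells by the interaction term, where the rise was 0.55 in shATF4 cells and the difference 0.09 in shSc cells. The response of TNFRSF10D to 48 h of 5-FU differed in the other direction, by -0.71 (log2), with rises of 0.80 in shATF4 cells and 1.51 in shSc cells. Before treatment TNFRSF10D averaged 41.0 CPM in shATF4 and 26.9 CPM in shSc cells, and at 48 h it averaged 71.7 and 76.9 CPM. Each of these calls was lost when certain single libraries were left out, as given above.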

How the results depend on the processing

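Over 88 member results and 2024 alternatives no called value reversed, and 55 uncalled values changed sign. The members called at 24 h for a difference in response numbered 2, against 1, with no filter on low counts, with the replicate block and under DESeq2, TNFRSF10D being added; all genes called there were 798, 644 and 606, 173 for the compared groups alone and 647 without both libraries that stood apart, against 369. With the compared groups alone the knockdown calls were 2 members and 2189 genes at 24 h (main 4 and 3533) and 2748 genes at 48 h (main 1636). Without both libraries that stood apart they were 891 genes untreated (main 506) and 3021 at 48 h, the 48 h difference in response had 1204 genes (main 475), and 48 h against 24 h in shATF4 cells had 5 members (main 3). Leaving out each library in turn gave 277 to 774 genes untreated, 2067 to 3885 at 24 h and 600 to 2463 at 48 h for the knockdown. It gave 65 (without shATF4 untreated replicate 2) to 1188 (without shATF4 24 h replicate 1) genes at 24 h and 136 to 991 at 48 h for the difference in response, and 4363 to 7485 for 48 h against 24 h in shSc cells. Members then numbered 2 to 4 for the knockdown at 24 h, 0 to 2 and 0 to 1 for the difference in response at 24 h and 48 h, and 3 to 5 in shATF4 and 2 to 5 in shSc cells for 48 h against 24 h. The cause was not tested, except that such fits hold fewer samples. Upper-quartile scaling raised the median of all genes by 0.13 in shATF4 and 0.14 in shSc cells at 48 h. It moved the share of calls that were higher to 60.1% (main 49.5%) at 24 h in shSc cells, to 61.2% (50.7%) in shATF4 and 61.4% (50.5%) in shSc cells at 48 h, to 60.2% (49.1%) for 48 h against 24 h in shSc cells and to 30.7% (44.4%) for the difference in response at 24 h. Replicate numbers did not pair the samples: same-numbered libraries of different groups had a mean correlation of deviations of 0.02 (36 pairs), other pairs -0.01 (70 pairs). The block changed 4 member calls, all gained. FAS and TNFRSF10C are limited by depth.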
